A study of Bos indicus with 12 samples.

Results

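Whether a cow's blood cells burn glucose or fat depends in part on 2 control points. The genes for both were among those with the lowest p-values for milk yield in Gir cows, where no gene passed adjustment. PDK4 encodes a kinase that phosphorylates and shuts down the pyruvate dehydrogenase complex, so that pyruvate from glucose is kept out of the citric acid cycle. CPT1A encodes the outer-membrane carnitine palmitoyltransferase, whose reaction lets long-chain fatty acids enter the mitochondrion for oxidation. Both genes are known targets of the fatty acid-sensing nuclear receptors of the PPAR family and are induced by fasting in many mammalian tissues. Downstream of CPT1A, long-chain acyl groups are returned to coenzyme A by CPT2 and shortened by the acyl-CoA dehydrogenases ACADVL and ACADM and by the trifunctional protein, whose subunits are HADHA and HADHB. ACSL1 and ACSL4 are the acyl-CoA synthetases that activate fatty acids at the start of the path. These 9 genes, of 26229 gene identifiers in the count table, were followed cow by cow.

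PDK4 (identifier 109558225) and CPT1A (109554147) were chosen because they were among the genes with the lowest p-values for yield in Gir cows, and CPT1A also because of its difference averaged over both breeds. In the Gir comparison the main fit (edgeR) called 0 of 15420 genes at an adjusted p under 0.05. There 291 genes had an unadjusted p under 0.05. Values of PDK4 and CPT1A in the comparisons that picked them are given as a description, with no test. The 7 other genes were chosen for their place in the oxidation path, and their values for yield in Gir cows are described in the same way. The yield comparison within Shweta Kapila and the comparison of the breeds did not enter the choice of PDK4 and were tested for all 9 genes. For CPT1A the average over both breeds contains the Shweta Kapila difference, so its test there is not independent of the choice. All 9 genes matched a single identifier each by symbol, and all 9 passed the filter on low counts.

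Blood RNA was sequenced from 12 female Bos indicus cows in the second or the third lactation. There were 3 high-yielding Gir, 3 low-yielding Gir, 3 high-yielding Shweta Kapila and 3 low-yielding Shweta Kapila cows, each a separate animal and a separate library. Gir and Shweta Kapila are indigenous Indian breeds, and yield classes were set within each breed from lactation records. No treatment is named, and the labels give the yield class of a cow but no yield value.

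Total counts ran from 14.2 M to 27.2 M per library (M, mega), and the 3 libraries of over 22 M were all Shweta Kapila (high 3, low 1 and low 2). In these 3 libraries the share of counts on 37 unnamed gene identifiers of 7 or 8 digits was 9.00%, 13.1% and 11.7%, and it was between 4.54% and 8.70% in the 9 others. The labels name mononuclear cells but also a whole-blood RNA kit, and the neutrophil receptor CXCR2 was measured at 228 to 1028 CPM (counts per M of the library total, TMM-scaled), beside the T cell gene CD3E at 531 to 1574 CPM. In such a mixture, fewer cells of a type and less RNA per cell cannot be told apart.

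PDK4 was far higher in each high-yielding Gir cow than in any low-yielding one. It stood at 67.6, 38.4 and 42.6 CPM in high-yielding Gir cows 1 to 3, against 8.15, 7.24 and 13.2 CPM in low-yielding Gir cows 1 to 3. The lowest high-yielding cow lay well above the highest low-yielding cow, so the groups did not overlap. The log2 fold change was 2.38 ± 0.49 (SE), and it stayed between 2.09 and 2.69 when any of the 12 cows was left out.

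In Shweta Kapila cows PDK4 showed no such order. Its level was 17.4, 8.48 and 26.5 CPM in high-yielding cows 1 to 3, against 29.4, 20.8 and 9.70 CPM in low-yielding cows 1 to 3. The highest and the lowest values fell in both classes, and high 3, low 1 and low 2, the 3 libraries with the largest totals, held the 3 highest values. The log2 fold change was −0.19 ± 0.46 (95% interval −1.20 to 0.81; edgeR adjusted p = 0.881), which leaves room for a change of either sign. It was 0.40 without those 3 libraries, where only low 3 stood for its class and was taken to vary like the other groups, and 0.72 in a fit with that share of short identifiers added. The part of total count and of this share in the result was not tested beyond these fits.

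The 4 groups thus ordered as high-yielding Gir at 49.6 ± 15.8 CPM, low-yielding Shweta Kapila at 19.96 ± 9.87, high-yielding Shweta Kapila at 17.5 ± 9.02 and low-yielding Gir at 9.52 ± 3.20 CPM (mean ± SD, n = 3 each). High-yielding Gir lay apart from its neighbour in this order. The other neighbours overlapped: the 2 Shweta Kapila groups with each other, and high-yielding Shweta Kapila with low-yielding Gir. Across cows the level of PDK4 spanned a 9.33-fold range, the widest of the 9 genes. The yield difference in Gir exceeded that in Shweta Kapila by 2.57 ± 0.66 log2 units. This value rests on the Gir comparison that picked the gene, so it was not tested.

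CPT1A was higher in high-yielding than in low-yielding Gir cows as well, with less spread. High-yielding Gir cows 1 to 3 stood at 117, 107 and 102 CPM, against 62.6, 34.3 and 45.0 CPM in low-yielding Gir cows 1 to 3. Every low-yielding cow lay below every high-yielding one. This was a log2 fold change of 1.20 ± 0.32 (SE), which ranged from 1.02 to 1.45 with a cow left out.

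In Shweta Kapila CPT1A leaned the same way but did not pass the test. High-yielding Shweta Kapila cows 1 to 3 stood at 145, 80.9 and 70.7 CPM, against 81.8, 54.6 and 47.8 CPM in low-yielding cows 1 to 3. Low 1 lay above 2 of the 3 high-yielding cows, so the groups overlapped. CPT1A had a log2 fold change of 0.69 ± 0.32 there (95% interval −0.01 to 1.38; edgeR adjusted p = 0.655). High 1 carried much of it, since the value was 0.31 without that cow, and it was 1.23 without the 3 largest libraries. The groups ordered as high-yielding Gir (109 ± 7.82 CPM), high-yielding Shweta Kapila (98.9 ± 40.2), low-yielding Shweta Kapila (61.4 ± 18.0) and low-yielding Gir (47.3 ± 14.3 CPM; mean ± SD, n = 3 each), and each group overlapped its neighbour in this order. The highest single value belonged to Shweta Kapila high 1 and the lowest to Gir low 2.

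**Figure D1:**
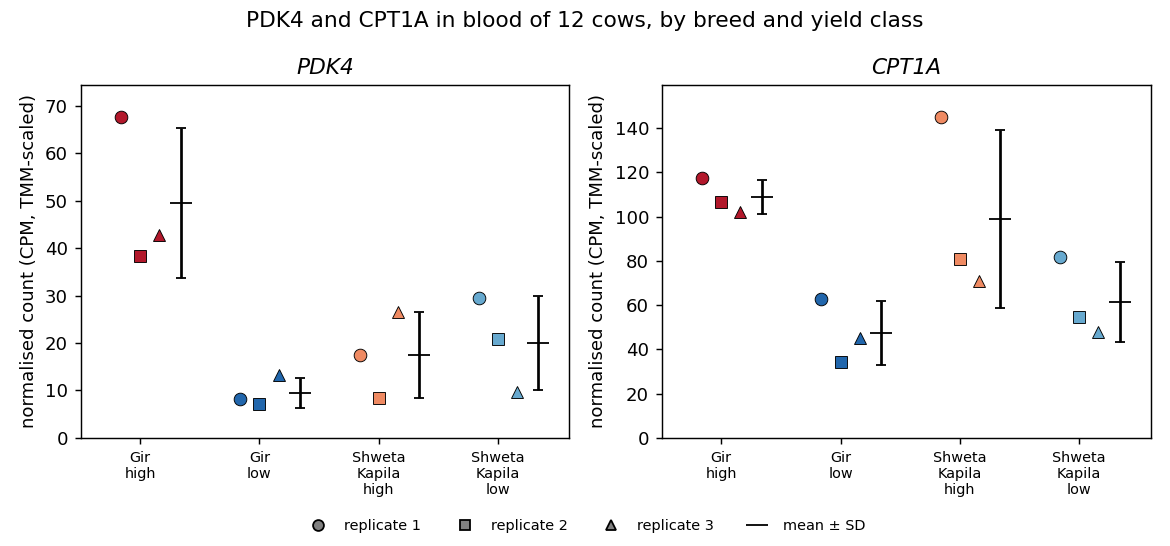
Level of PDK4 (left) and CPT1A (right) in each cow, in CPM scaled by TMM, with symbols for the replicates of a group and a bar for the group mean ± SD (n = 3). For both genes the 3 high-yielding Gir cows lie above all 3 low-yielding Gir cows, while the 2 Shweta Kapila groups overlap.

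PDK4 and CPT1A followed each other closely in Gir and hardly at all in Shweta Kapila. Pearson's r between their log2 CPM was 0.66 over the 12 cows, 0.91 over the 6 Gir cows and 0.17 over the 6 Shweta Kapila cows. Both genes were picked on the same Gir difference, so these values are a description of it. Shweta Kapila high 1, with the most CPT1A of any cow, had a middling PDK4 level of 17.4 CPM.

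The oxidation enzymes had small log2 fold changes between the yield classes in Gir cows, where PDK4 and CPT1A differed most. Their 95% intervals there left room for a change of either sign, from −0.32 to 0.51 for CPT2 and from −1.05 to 0.65 for ACSL4. CPT2, the inner-membrane partner of CPT1A, was the steadiest of the 9 genes. It ranged only from 26.4 to 34.6 CPM over the 12 cows, a 1.31-fold span. CPT2 stood at 31.1, 34.6 and 32.1 CPM in high-yielding Gir cows and at 33.4, 28.9 and 29.1 CPM in low-yielding Gir cows. Shweta Kapila cows were flatter still, at 27.0, 27.5 and 28.3 CPM in the high-yielding and 26.5, 26.4 and 30.0 CPM in the low-yielding class. CPT2 had a log2 fold change of 0.10 ± 0.19 (SE) in Gir and 0.00 ± 0.19 in Shweta Kapila (95% interval −0.42 to 0.41; edgeR adjusted p = 0.996).

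The acyl-CoA dehydrogenases had small log2 fold changes with yield, with 95% intervals in Gir of −0.32 to 0.66 for ACADVL and −0.71 to 0.82 for ACADM. ACADVL, which acts on very long acyl chains, stood at 175, 165 and 195 CPM in high-yielding Gir cows, against 158, 161 and 156 CPM in low-yielding Gir cows. These groups did not overlap, but the gap was narrow and the log2 fold change was only 0.17 ± 0.23 (SE). In Shweta Kapila the same gene stood at 232, 129 and 147 CPM in the high-yielding and 141, 161 and 153 CPM in the low-yielding class, with high 1 far above the rest. Its log2 fold change there was 0.15 ± 0.23 (edgeR adjusted p = 0.800) and turned to −0.13 without high 1. ACADM, the medium-chain enzyme, had log2 fold changes of 0.06 ± 0.35 in Gir and −0.11 ± 0.35 in Shweta Kapila (edgeR adjusted p = 0.912). Its values overlapped between the yield classes in both breeds, and its highest level, 74.8 CPM, was in Shweta Kapila low 1.

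The trifunctional protein subunits did not share the Gir pattern. HADHA, the hydratase and dehydrogenase subunit, stood at 131, 125 and 128 CPM in high-yielding Gir cows and at 119, 144 and 132 CPM in low-yielding ones, a log2 fold change of −0.04 ± 0.24 (SE). HADHB, the thiolase subunit, was at 119, 99.5 and 108 CPM in high-yielding and at 114, 105 and 110 CPM in low-yielding Gir cows, a log2 fold change of −0.01 ± 0.19. Both log2 fold changes were near 0 in this breed, with 95% intervals of −0.56 to 0.47 for HADHA and −0.43 to 0.40 for HADHB. In Shweta Kapila HADHB stood at 98.6, 84.4 and 107 CPM in the high-yielding class, against 141, 131 and 107 CPM in the low-yielding class. Of the 7 enzymes it came nearest to the threshold there, with a log2 fold change of −0.38 ± 0.19 (95% interval −0.80 to 0.03; edgeR adjusted p = 0.655), in the direction opposite to CPT1A. HADHA was at −0.15 ± 0.24 in that comparison (edgeR adjusted p = 0.815).

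Of the synthetases, ACSL1, the main synthetase of liver, muscle and fat, varied from 23.1 to 41.6 CPM with no order by class. Its log2 fold changes were 0.13 ± 0.25 in Gir and 0.03 ± 0.25 in Shweta Kapila (edgeR adjusted p = 0.972). ACSL4, which prefers arachidonic acid and feeds it into membrane phospholipids, stood at 122, 92.9 and 123 CPM in high-yielding Gir cows, against 129, 128 and 131 CPM in low-yielding Gir cows. The high-yielding cows lay below, by a log2 fold change of −0.20 ± 0.39 (SE). In Shweta Kapila it stood at 85.1, 113 and 206 CPM in the high-yielding and 271, 210 and 85.8 CPM in the low-yielding class. The 3 high values were again those of the 3 largest libraries. The log2 fold change of ACSL4 in Shweta Kapila was −0.49 ± 0.39 (edgeR adjusted p = 0.676) and turned to 0.21 without those libraries.

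**Figure D2:**
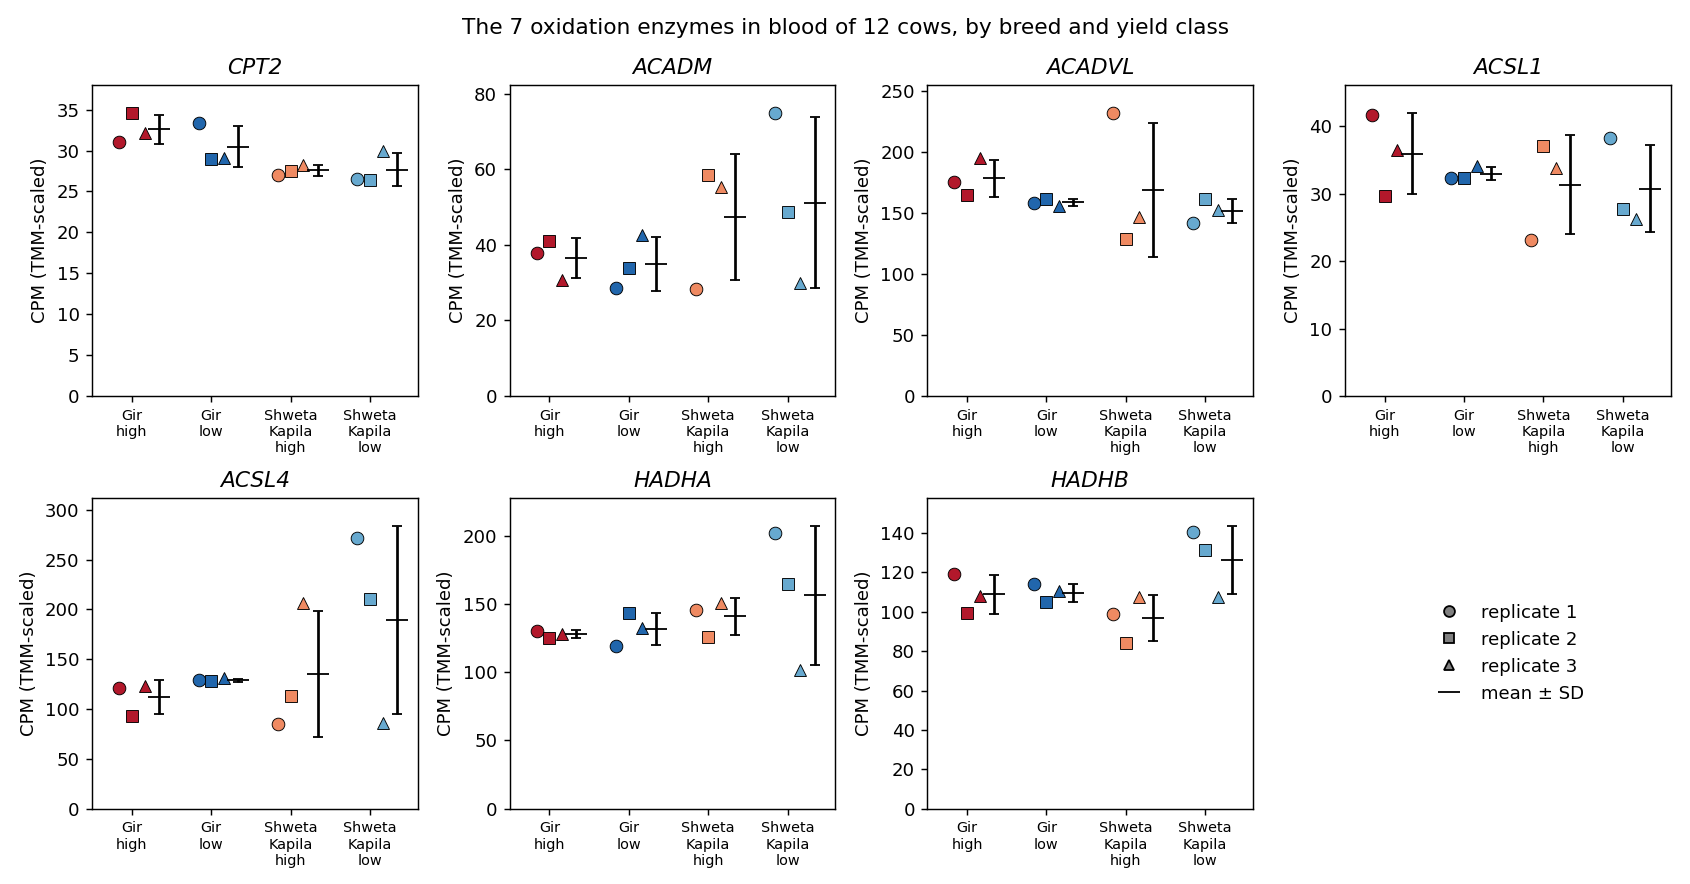
Level of each of the 7 oxidation enzymes in each cow, in CPM scaled by TMM, with a bar for the group mean ± SD (n = 3). Gir yield classes overlap for 5 of the 7 enzymes and are separated by a narrow gap for ACADVL (higher with high yield) and ACSL4 (lower), and the wide spread of ACSL4, HADHA and ACADM in Shweta Kapila comes with high values in the libraries low 1 and, for ACSL4, high 3 and low 2.

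Counted over the 9 genes, 4 separated the yield classes in Gir without overlap, against 10.2% of all 15420 genes tested. These were PDK4, CPT1A and ACADVL on the higher and ACSL4 on the lower side, and PDK4 and CPT1A were picked on this comparison, so nothing is read from the count. In Shweta Kapila 0 of the 9 genes separated the classes, where the background was 7.21%. edgeR's quasi-likelihood test called 0 of 15420 genes in Shweta Kapila (0% called), with 1077 genes at an unadjusted p under 0.05, or 6.98%. None of the 9 genes reached that unadjusted level in Shweta Kapila (0 of 9). DESeq2 called 62 genes there (0.402%) and 0 of the 9, while limma-voom with sample weights called 3898 (25.3%), among them ACSL4 and HADHB, both lower in the high-yielding class (adjusted p = 0.0253 and 0.0204). The median log2 fold change of the 7 enzymes was 0.06 in Gir and −0.11 in Shweta Kapila, beside −0.02 and −0.02 over all genes tested.

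**Figure D3:**
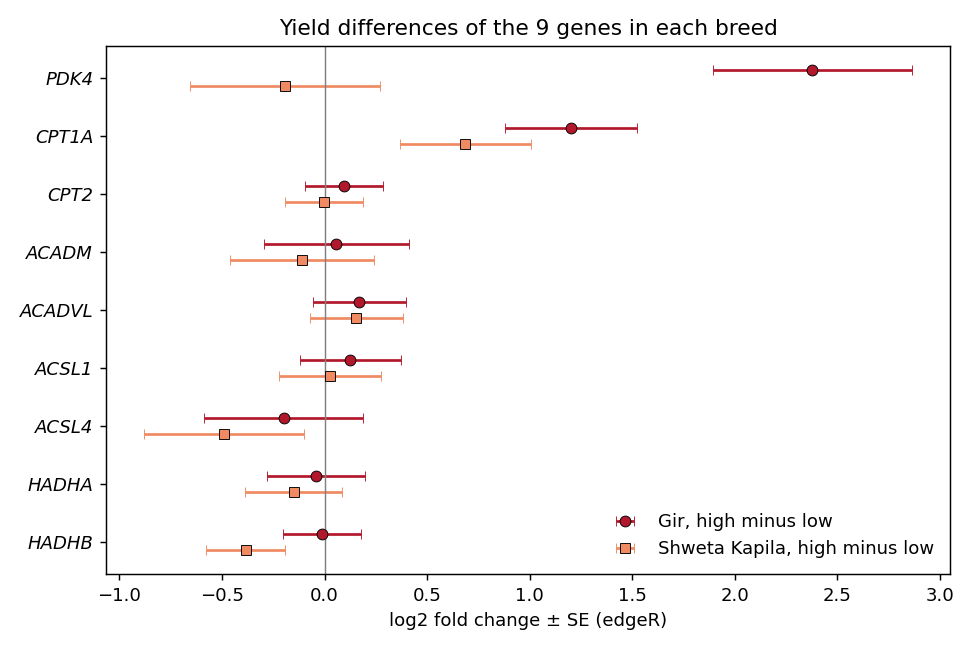
Log2 fold change of high-yielding over low-yielding cows for each of the 9 genes, with its standard error, in Gir (circles) and Shweta Kapila (squares). PDK4 (2.38) and CPT1A (1.20) stand far to the right in Gir, and all 7 enzymes lie between −0.20 and 0.17 there.

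Between the breeds, averaged over the yield classes, none of the 9 genes passed the edgeR test. CPT1A was at a log2 fold change of −0.12 ± 0.22 (SE) for Gir over Shweta Kapila and PDK4 at 0.22 ± 0.33 (edgeR adjusted p = 0.875 and 0.841). The largest differences were those of ACADM at −0.46 ± 0.25 (95% interval −1.004 to 0.08; edgeR adjusted p = 0.571) and ACSL4 at −0.41 ± 0.28 (edgeR adjusted p = 0.639), both lower in Gir. Without the 3 largest Shweta Kapila libraries ACADM and ACSL4 were at −0.01 and 0.39, where only low 3 stood for its class. With 1 cow left out, ACADM ran from −0.60 to −0.27 and ACSL4 from −0.58 to −0.18. None of the 9 genes separated the breeds without overlap, where 0.603% of all genes did. edgeR called 0 of 15420 genes between breeds (0% called; 1476 genes, or 9.57%, at an unadjusted p under 0.05), DESeq2 called 195 (1.26%) and limma-voom 2558 (16.6%), the last including ACADM (adjusted p = 0.0469).

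Whether the enzymes moved with PDK4 and CPT1A was asked cow by cow, over 14 pairs of log2 CPM values. Over the 12 cows none passed (lowest adjusted p = 0.839 over the 14, permutation test with 100000 resamples, 2-sided). In that test 0 had an unadjusted p under 0.05. With PDK4, Pearson's r over the 12 cows was weakly positive for all 7 enzymes, from 0.18 for ACADM to 0.36 for HADHB (Spearman's rho 0.21 and 0.35; permutation p = 0.563 and 0.258 for r, and 0.515 and 0.266 for rho). With CPT1A, r ran from −0.21 for ACSL4 to 0.51 for ACADVL, and 4 of 7 were positive. The pair of CPT1A and ACADVL was the strongest of the 14, with r = 0.51 (permutation p = 0.0904, adjusted p = 0.839) and rho = 0.45 (permutation p = 0.139, adjusted p = 0.744). Without Gir low 2 and Shweta Kapila high 1, the cows farthest from the median of CPT1A, its r was 0.34. Without the same cows CPT1A had r = 0.60 with ACSL1, against 0.04 over all 12, and 0.37 with CPT2, against 0.14. The order of the pairs thus depended on these 2 cows. With each group's mean subtracted, the r of PDK4 was 0.93 with HADHB, 0.74 with HADHA and 0.73 with ACSL4. Exact permutation within groups gave p = 0.00386, 0.0278 and 0.0856 (adjusted p = 0.0540, 0.194 and 0.400 over the 14). Spearman's rho was 0.89, 0.67 and 0.80 (exact permutation, adjusted p = 0.0648, 0.346 and 0.140). None passed adjustment, and CPT2 lay on the other side, with r = −0.47.

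Within a breed the enzymes split. In Gir, ACADVL had r = 0.70 with PDK4 and 0.65 with CPT1A (exact permutation p = 0.108 and 0.147). CPT2 had r = 0.70 with CPT1A (exact permutation p = 0.142), and ACSL4 and HADHA had negative r with both, between −0.21 and −0.56. These r include the class gap that picked PDK4 and CPT1A. With group means subtracted, over the 12 cows, ACADVL had r = 0.15 with PDK4 and 0.48 with CPT1A (exact permutation within groups, p = 0.827 and 0.407). In Shweta Kapila, the levels of HADHA, ACSL4 and HADHB went with PDK4 (r = 0.87, 0.79 and 0.73; exact permutation p = 0.0236, 0.0889 and 0.0972; rho = 0.89, 0.71 and 0.89), and CPT2 ran against it (r = −0.53; exact permutation p = 0.274). No pair within a breed passed adjustment over the 14 pairs of its breed. The lowest adjusted p for r was 0.638 in Gir and 0.331 in Shweta Kapila (exact permutation). For rho it was 0.564 and 0.233 (exact permutation). In Shweta Kapila the 3 highest values of PDK4, ACSL4 and HADHA were all those of the 3 largest libraries. For HADHB low 1 and low 2 were highest, and high 3 and low 3 were level at 107 CPM. Over the 12 cows the share of short identifiers had r = 0.89 with ACSL4, 0.84 with HADHB, 0.76 with HADHA and 0.40 with PDK4 (permutation, adjusted p = 0.00198, 0.00603, 0.0164 and 0.352 over 18 relations of the 9 genes with the share and the total count; rho = 0.86, 0.80, 0.58 and 0.51, with adjusted p = 0.0139, 0.0264, 0.133 and 0.207). Without Shweta Kapila low 1 and low 2, the cows farthest from the median share, these r were 0.72, 0.56, 0.27 and 0.47. Within Shweta Kapila they were 0.94, 0.92, 0.81 and 0.79 (lowest adjusted p = 0.0750, exact permutation), and within Gir 0.22, 0.14, 0.02 and 0.33. The part of the share in the correlations of PDK4 with these enzymes, those with group means subtracted included, was not tested.

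**Figure D4:**
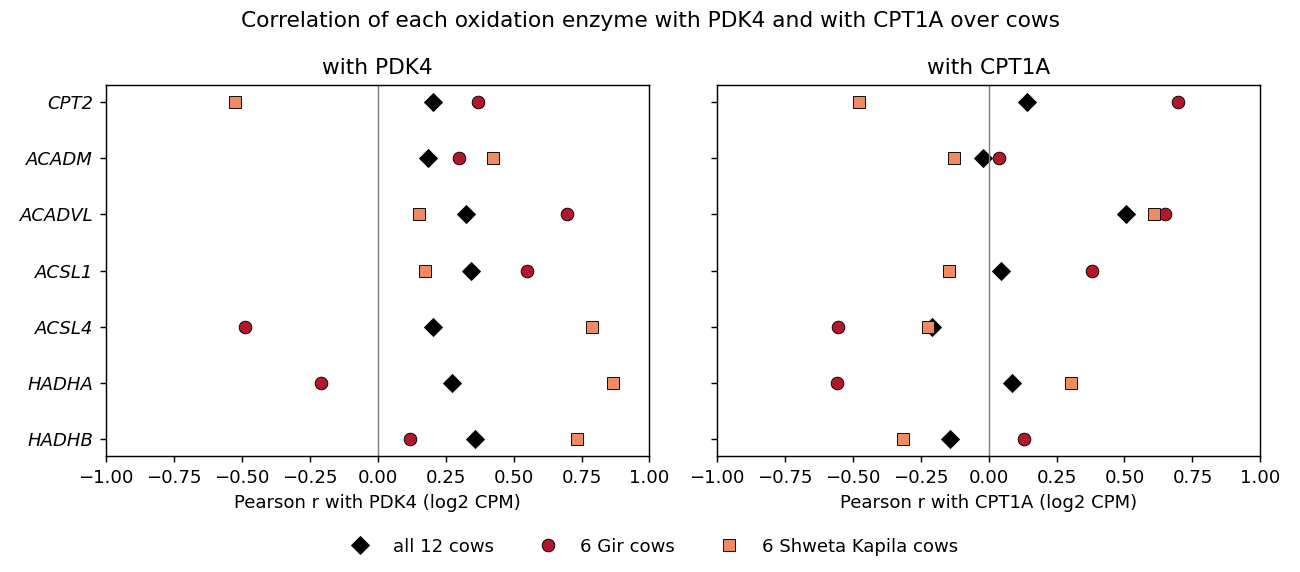
Pearson's r of each oxidation enzyme with PDK4 (left) and with CPT1A (right), computed on log2 CPM over all 12 cows (diamonds), the 6 Gir cows (circles) and the 6 Shweta Kapila cows (squares). Values over all cows lie between −0.21 and 0.51, and with PDK4 the breeds lie on opposite sides of 0 for CPT2, ACSL4 and HADHA.

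Many other genes lay nearer to PDK4 and CPT1A than the enzymes did. Of 11895 genes with a symbol, ordered by r with PDK4 over the 12 cows, the closest enzyme, HADHB, stood at rank 1748. The 5 nearest were PAPSS2, which makes the sulfate donor PAPS (r = 0.88), SPG21 (0.86), the growth factor gene NRG1 (0.86), OLR1, the receptor for oxidised LDL (0.85), and SHE (0.85). PAPSS2 had 121 ± 13.8 CPM in high-yielding against 51.8 ± 28.1 CPM in low-yielding Gir cows, and 58.1 ± 15.01 CPM in high-yielding against 91.3 ± 42.5 CPM in low-yielding Shweta Kapila cows (n = 3 each, mean ± SD). CPT1A was at rank 187 for PDK4, and PDK4 at rank 88 for CPT1A.

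Nearest to CPT1A were KLF11, a Krüppel-like transcription factor (r = 0.91), ANKRD33B (0.89), TMEM185A (0.86), NPC2, the lysosomal cholesterol carrier (0.83), and LCMT1, a methyltransferase of protein phosphatase 2A (0.83). KLF11 had 27.3 ± 6.26 CPM in high-yielding against 11.1 ± 3.83 CPM in low-yielding Gir cows. In Shweta Kapila it had 24.2 ± 19.6 CPM in the high-yielding against 17.9 ± 9.17 CPM in the low-yielding class (mean ± SD, n = 3 each). ACADVL, at rank 421, was the enzyme nearest to CPT1A. These ranks describe the 12 cows and carry no test.

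The rest of the pyruvate dehydrogenase system did not show the PDK4 difference. Of its 12 genes tested beside PDK4, 6 were higher and 6 lower in high-yielding Gir cows, with a median log2 fold change of −0.01. The sister kinases were at −0.40 ± 0.36 for PDK1, −0.03 ± 0.41 for PDK2 and 0.19 ± 0.25 for PDK3 (SE). PDK1 had 66.6 ± 5.58 CPM in high-yielding against 87.7 ± 21.2 CPM in low-yielding Gir cows (mean ± SD, n = 3 each). PDP1, the phosphatase that reverses the kinases, stood at 12.7, 9.18 and 8.26 CPM in high-yielding Gir cows, against 14.7, 16.4 and 14.6 CPM in low-yielding ones, on the side opposite to PDK4 (−0.60 ± 0.43).

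In Shweta Kapila 4 of these 12 genes were higher and 8 lower in the high-yielding class (median −0.27), and edgeR called 0, with 0 at an unadjusted p under 0.05. PDK1 stood at 0.03 ± 0.36, PDK2 at −0.30 ± 0.42, PDK3 at −0.40 ± 0.25, PDP1 at −0.50 ± 0.43 and DLAT, the acetyltransferase core of the complex, at −0.56 ± 0.29 (edgeR adjusted p between 0.655 and 0.979). Between breeds, PDK2 was at 0.75 ± 0.29 and MPC1, a subunit of the mitochondrial pyruvate carrier, at −0.50 ± 0.16 for Gir over Shweta Kapila (edgeR adjusted p = 0.457 and 0.368).

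Receptors and coregulators that act upstream of PDK4 and CPT1A had a median near 0 in both breeds, with RXRA and ESRRA farther out. Of 11 tested genes, 9 were higher and 2 lower in high-yielding Gir cows, with a median log2 fold change of 0.06, and 5 were higher and 6 lower in Shweta Kapila (median −0.10; 0 called by edgeR, 0 at an unadjusted p under 0.05). PPARA was at 0.09 ± 0.28 in Gir and −0.36 ± 0.28 in Shweta Kapila, and PPARD at 0.26 ± 0.33 and 0.14 ± 0.33 (SE). RXRA, the partner with which PPARs bind DNA, had 36.9, 61.0 and 58.6 CPM in high-yielding against 41.8, 25.1 and 27.9 CPM in low-yielding Gir cows. The groups overlapped through high 1 and low 1, and the log2 fold change was 0.72 ± 0.40. In Shweta Kapila RXRA was at 0.58 ± 0.40 and the oestrogen-related receptor ESRRA at 1.12 ± 0.56 (edgeR adjusted p = 0.656 and 0.655), and at 0.08 and 0.03 with the short-identifier share in the fit. Without high 1 they were at 0.11 and 0.63, and without low 3 at 1.01 and 2.10. Under limma-voom ESRRA was at 1.83 in Shweta Kapila (adjusted p = 0.00542) and RXRA at 0.46 (adjusted p = 0.272).

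Among 25 other genes of mitochondrial oxidation, SLC25A20 had the lowest unadjusted edgeR p for yield in Shweta Kapila and is described for that reason. It encodes the carrier that brings the acylcarnitines made by CPT1A across the inner membrane. It had 32.2, 37.6 and 28.8 CPM in high-yielding Gir cows, against 27.7, 16.8 and 21.2 CPM in low-yielding Gir cows. All 3 high-yielding cows lay above the low-yielding ones, by a narrow gap and with a log2 fold change of 0.59 ± 0.47 (SE). SLC25A20 shared this lack of overlap, in either direction, with 10.2% of all genes tested. In Shweta Kapila it had 56.1, 29.2 and 14.6 CPM in the high-yielding against 10.8, 10.6 and 27.3 CPM in the low-yielding class, with overlap. SLC25A20 was at a log2 fold change of 1.03 ± 0.47 there (edgeR adjusted p = 0.655), at 0.45 without high 1, at 1.64 without low 3 and at 0.16 with the short-identifier share in the fit. limma-voom gave 1.39 (adjusted p = 0.00888). The lowest 3 values of SLC25A20 in that breed were those of the 3 largest libraries, the reverse of PDK4 and ACSL4.

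The list as a whole had 14 genes higher and 11 lower in high-yielding Gir cows (median log2 fold change 0.05), and 10 higher and 15 lower in high-yielding Shweta Kapila cows (median −0.13). Its largest value in Gir was that of ECI2, an isomerase that handles the double bonds of unsaturated acyl chains, which was named after its values were seen. ECI2 had 2.50, 5.00 and 3.67 CPM in high-yielding Gir cows, against 1.15, 1.36 and 1.00 CPM in low-yielding ones. The log2 fold change was 1.66 ± 0.68 (SE), without overlap, as for 10.2% of all genes tested in either direction. ECI2 was low in count, and its 0.411 CPM in Shweta Kapila high 3 was near the 0.368 CPM of 10 counts in that library, the largest. In Shweta Kapila it had 3.80, 0.693 and 0.411 CPM in the high-yielding against 3.16, 1.70 and 2.45 CPM in the low-yielding class, at −0.60 ± 0.66 (edgeR adjusted p = 0.739) and at −2.14 without high 1. edgeR called 0 of the 25 in Shweta Kapila and 0 between breeds, with 1 at an unadjusted p under 0.05 in either comparison. These were SLC25A20 for yield in Shweta Kapila and ECHS1, the short-chain enoyl-CoA hydratase, at 0.54 ± 0.20 for Gir over Shweta Kapila (edgeR adjusted p = 0.427).

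The 8 lists together held 104 tested genes. edgeR and DESeq2 each called 0 of the 104 for yield in Shweta Kapila and 0 between breeds. Without Shweta Kapila low 3, edgeR called 3 of them between breeds, where it called 447 of all 15755 genes tested. limma-voom with sample weights called 28 of the 104 for yield in Shweta Kapila and 20 between breeds, where it called 25.3% and 16.6% of all genes. Of the list genes given values here, it called SLC25A20, ESRRA, HSD17B4, PLIN2, FABP3, PDK3 and DLAT for yield in Shweta Kapila (limma-voom adjusted p between 0.00538 and 0.0471). Between breeds it called PDK2, MPC1, PLIN3, FABP5, MGLL, ECHS1, ELOVL5 and ELOVL6 (limma-voom adjusted p between 0.00699 and 0.0312). Each lay in the direction of the edgeR value, which comes from the same counts. These genes were given values after their values were seen, several for a low p in the same comparison. Their calls are therefore no independent support.

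PPAR targets and lipolysis genes were higher in 12 and lower in 4 of 16 in high-yielding cows of either breed, with medians of 0.16 in Gir and 0.09 in Shweta Kapila. PLIN2, the lipid droplet coat protein and a known PPAR target, lay on the other side in Shweta Kapila at −0.68 ± 0.31, while FABP3, a fatty acid carrier, was at 0.94 ± 0.42 (SE; edgeR adjusted p = 0.655 for both). Between breeds PLIN3 was at 0.96 ± 0.31, MGLL, the monoglyceride lipase, at 0.67 ± 0.26 and FABP5, another fatty acid carrier, at −0.98 ± 0.28 for Gir over Shweta Kapila (edgeR adjusted p = 0.362, 0.457 and 0.316).

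Peroxisomal oxidation genes divided evenly, with 5 higher and 6 lower of 11 in high-yielding cows of either breed (medians −0.04 and −0.04). HSD17B4, a multifunctional enzyme of that path, stood at 37.8 ± 12.1 CPM in high-yielding against 64.2 ± 13.8 CPM in low-yielding Shweta Kapila cows (n = 3 each, mean ± SD; −0.76 ± 0.26 on the log2 scale, edgeR adjusted p = 0.655). Ketone body genes had 2 higher and 3 lower of 5 in either breed. Of 15 genes of fatty acid synthesis and malonyl-CoA, the inhibitor of CPT1A, 8 were higher in Gir and 5 in Shweta Kapila. In this list the desaturase FADS2 was at −2.18 ± 0.77 in Shweta Kapila (edgeR adjusted p = 0.655), at −0.88 without low 3 and at −2.62 without low 2. It had 0.289 ± 0.0660 CPM in the high-yielding against 1.35 ± 1.41 CPM in the low-yielding class (mean ± SD, n = 3 each). The high-yielding values, 0.316, 0.213 and 0.336 CPM, were near the floor, below the 0.368 CPM of 10 counts in the largest library. The elongases ELOVL5 and ELOVL6 were at −0.59 ± 0.23 and −0.84 ± 0.37 for Gir over Shweta Kapila (edgeR adjusted p = 0.449 and 0.495). Glucocorticoid-responsive genes, a list taken because PDK4 is also induced by glucocorticoids, were higher in 9 of 9 in high-yielding Gir cows (median 0.37) and in 4 of 9 in Shweta Kapila (median −0.08). None of the 9 had an unadjusted edgeR p under 0.05 in either breed. Of all 15420 genes tested, 7306 were higher in high-yielding Gir cows and 7447 in high-yielding Shweta Kapila cows. The part of glucocorticoids in the level of PDK4 was not tested. edgeR called 0 genes of these lists for yield in Shweta Kapila or between breeds.

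**Figure D5:**
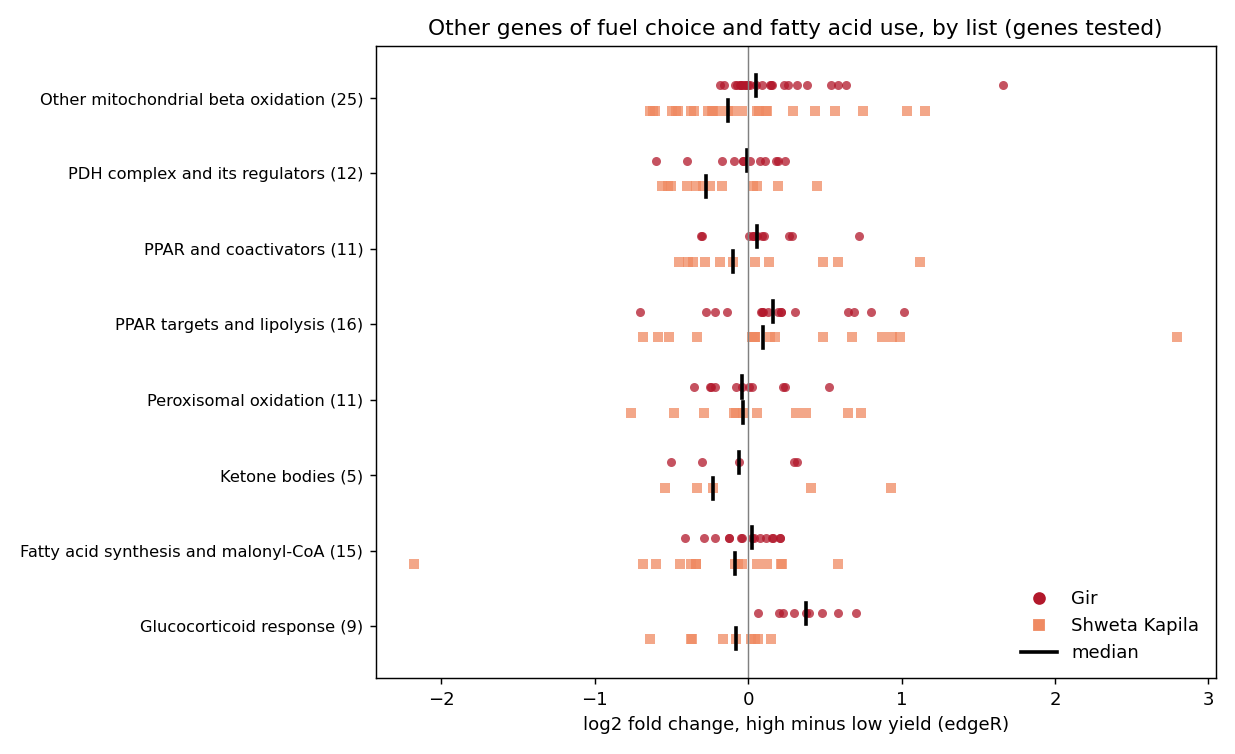
Log2 fold change of high-yielding over low-yielding cows for the genes of 8 lists around fatty acid use, in Gir (circles) and Shweta Kapila (squares), with the median of each list as a black line. Medians lie between −0.27 and 0.16 except for the glucocorticoid list in Gir, at 0.37, where 9 of 9 genes are above 0. Of all 15420 genes tested, 7306 are above 0 in Gir.

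Levels of blood cell markers are set beside the differences of PDK4 and CPT1A as values, with no test of cell makeup. All 10 tested monocyte markers were higher in high-yielding Gir cows (median log2 fold change 0.72), and their summed level ran from 3065 to 4665 CPM, against 2293 to 3066 CPM in low-yielding Gir cows, so the ranges of the sums met. In Shweta Kapila 5 of 10 were higher (median 0.06), with sums of 1445 to 4552 CPM in the high-yielding and 1725 to 2697 CPM in the low-yielding class. Neutrophil markers, of which 3 are also on the monocyte list, were higher in 6 of 10 in Gir (2823 to 4510 CPM in the high-yielding against 2228 to 2875 CPM in the low-yielding class) and in 8 of 10 in Shweta Kapila (1390 to 4250 CPM in the high-yielding against 1631 to 2337 CPM in the low-yielding class). T cell markers were higher in 2 of 14 in Gir (2884 to 3223 CPM in the high-yielding against 2659 to 4081 CPM in the low-yielding class) and in 12 of 14 in Shweta Kapila (4692 to 6319 CPM in the high-yielding against 2797 to 4198 CPM in the low-yielding class). B cell markers were higher in 1 of 8 in Gir and 0 of 8 in Shweta Kapila, NK and cytotoxic markers in 0 of 8 in Gir and 7 of 8 in Shweta Kapila, and eosinophil and basophil markers in 0 of 5 in Gir and 2 of 5 in Shweta Kapila. Platelet markers were higher in 4 of 7 in either breed. The Gir ranges of the summed neutrophil, T cell and erythroid markers overlapped between the yield classes as well. Erythroid markers were higher in 4 of 4 in Gir, with sums of 14.1 to 544 CPM in high-yielding against 28.3 to 108 CPM in low-yielding cows. No detected marker of these lists was at 0 in a whole group. The part of these cell types in the levels of PDK4, CPT1A and the enzymes was not tested.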

How the data were processed

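Blood RNA of 12 cows was sequenced from strand-marked, ribosome-depleted libraries, per the labels' protocols. The authors deposited unscaled expected counts for each gene; 57.0% of the values differ from a whole number by more than 1e-06. Trimmomatic and FastQC are named, per the submitters' processing notes; the aligner, counter, strand setting, build and annotation stay unnamed (not given in the sources used here), so reads of overlapping or near-identical genes may be split in unknown ways. Symbols came by identifier from a RefSeq table of a Tharparkar assembly, used for names alone because the build counted is unknown, with 22754 of 26229 matched (86.8%).

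After rounding, the fit used edgeR 4.0.16 (R 4.3.3): filterByExpr by group (minimum count 10, total 15; 15420 genes kept, all 12 libraries), TMM, and a robust quasi-likelihood fit of 4 group means with Benjamini-Hochberg adjustment at 0.05, 2-sided. In the smallest library 10 counts are 0.704 CPM, and in the largest 0.368 CPM. All libraries are separate cows, and pairs within a group differed by at least 35.1 in chi-square per degree of freedom. The spread behind each p-value of a fit is that among cows of a group. Permutation p-values of correlations came from shuffling cows across groups, over all cows or within a breed. They therefore also rest on differences between groups. Where Gir cows enter, these include the Gir class gap that picked PDK4 and CPT1A. Only with group means subtracted were cows shuffled within groups. Intervals use the moderated degrees of freedom. Correlations use log2 CPM (prior count 2), with exact permutation within a breed (720 orders). Python 3.11.15, NumPy 2.4.6, SciPy 1.17.1 and matplotlib 3.10.9 were used.

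The 9 genes, the lists and the tests were chosen with earlier results of these data known. All genes of the pyruvate dehydrogenase and PPAR lists could be named, and from the other lists, except the glucocorticoid one, any gene called plus the 3 of lowest p for yield in Shweta Kapila and the 3 between breeds; those given values were chosen among these, and ECI2 outside them, after their values were seen, as were the correlations with library properties. Alternatives were DESeq2 1.42.0, limma-voom 3.58.1, DESeq2 size factors, no filter, the share covariate, a replicate block, a single breed in the fit, other scalings, and libraries left out. The edgeR fit was tested on simulated data.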

Additional observations from a re-analysis of the deposited data

How the results depend on the processing

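With 3 cows a group and a common biological coefficient of variation of 0.38, small differences cannot be told from 0, and edgeR called 0 genes in each comparison. DESeq2 called 1 gene for yield in Gir, 62 in Shweta Kapila, 4 over both breeds, 9 for the difference of the yield differences and 195 between breeds, and limma-voom with sample weights called 1, 3898, 1256, 1308 and 2558 in the same comparisons; limma-voom called 2 of the 9 genes for yield in Shweta Kapila and 1 between breeds. Without the libraries over 22 M the counts were 3 for yield in Shweta Kapila, 1 over both breeds and 31 between breeds. Between breeds they were 3 with no filter and 24 with the short-identifier share as a covariate. Leaving out 1 cow gave 0 to 2 genes for yield in Shweta Kapila, 0 to 1 for the difference of differences and 0 to 447 between breeds, the last without Shweta Kapila low 3. The cause was not tested.

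The replicate numbers recur in every group but belong to different cows. Of 18 same-numbered pairs, 3 had deviations correlated above 0.1 (lowest r = −0.56, highest 0.34), so the numbers were not taken as pairs; with the replicate block, 1 gene was called between breeds.

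The signs of the Gir differences of PDK4 and CPT1A held in every fit run. Both genes were picked on this difference and their Gir classes did not overlap, so the held signs add no support. For yield in Shweta Kapila, the share covariate gave log2 fold changes of 0.72 for PDK4, 0.51 for ACADM, 0.42 for ACSL4, 0.26 for HADHA, 0.14 for PDP1 and −0.0943 for PPARD, all of the other sign, and leaving out the libraries over 22 M gave 0.40, 0.55, 0.21, 0.41, 0.37 and −0.33 for the same genes. limma-voom turned CPT2 to 0.0554, ACADM to 0.0412 and ACADVL to −0.13, and no filter turned CPT2 to 0.0122. Between breeds, leaving out those libraries gave 0.39 for ACSL4, 0.15 for HADHA, 0.15 for HADHB and 0.27 for ELOVL6, and the covariate 0.0310 for HADHB. With 1 cow left out, the yield difference in Shweta Kapila ran from −0.63 to 0.18 for PDK4, −0.0385 to 0.0598 for CPT2, −0.38 to 0.26 for ACADM, −0.13 to 0.32 for ACADVL, −0.11 to 0.21 for ACSL1, −0.38 to 0.0650 for HADHA, −0.22 to 0.37 for PDK1, −0.62 to 0.27 for PDK2 and −0.14 to 0.47 for PPARD; the breed difference ran from −0.25 to 0.0784 for CPT1A, −0.0105 to 0.23 for ACADVL and −0.0689 to 0.0353 for HADHB.

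Pearson's r changed sign with group means subtracted for PDK4 with CPT2 (−0.473) and for CPT1A with CPT2 (−0.0216), ACSL1 (−0.129) and HADHB (0.419). It did so with plain totals for CPT1A with ACSL1 (−0.0241) and HADHA (−0.169). Without the libraries over 22 M it did so for PDK4 with ACADM (−0.0200) and ACSL4 (−0.0614) and for CPT1A with ACSL1 (−0.0340). With 1 cow left out, r with CPT1A ran from −0.0174 to 0.360 for CPT2, −0.144 to 0.196 for ACADM, −0.143 to 0.527 for ACSL1 and −0.0993 to 0.167 for HADHA. With group means subtracted, PDK4 and HADHB had r = 0.928 (exact permutation adjusted p = 0.0540 over the 14 pairs).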
